A study of Mus musculus with 34 samples.

Results

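Filip1, Sh3rf3, Elp4 and Usp36 are 4 mouse genes on different chromosomes, taken as a set because chromatin regions in or beside them had shown different H3K27ac between embryonic stem cell lines. A region is a row of the deposited count tables. Regions were assigned to a gene when they overlapped its gene body, extended by 10000 bp on both sides, by at least 1 bp. This gave 98 of the 248336 regions in the list shared by 3 of the tables (34 for Filip1, 37 for Sh3rf3, 15 for Elp4 and 12 for Usp36). In the separate list of 96988 regions used for H3K27ac in the separate lines it gave 17 regions, 1 for Filip1, 6 for Sh3rf3, 5 for Elp4 and 5 for Usp36. The genes were chosen on H3K27ac counts of the repeated libraries. The H3K27ac values of the genes in those libraries are therefore described with no test of their own. Where regions are counted by their H3K27ac calls in the same libraries, the counts are descriptions too.

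H3K27ac is an acetylated histone mark of active promoters and enhancers. H3K9me3 is a methylated histone mark of heterochromatin, which in embryonic stem cells covers many interspersed repeats, where KRAB zinc finger proteins recruit TRIM28 and the methyltransferase SETDB1. Filip1 encodes a protein that binds filamin A, an actin crosslinker. Sh3rf3 encodes a RING-type ubiquitin ligase with SH3 domains. Elp4 encodes a subunit of Elongator, the complex that modifies wobble uridines of tRNAs, and its introns hold distant enhancers of the neighbouring gene Pax6. Usp36 encodes a nucleolar deubiquitinase.

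The cells were mouse embryonic stem cells grown in serum with LIF and the inhibitors PD0325901 (of MEK) and CHIR99021 (of GSK3), fixed and fragmented with micrococcal nuclease before immunoprecipitation. C57BL/6J (B6) and DBA/2J (D2) are inbred strains. B6-13D2 is the congenic line B6.D2-(rs30079041-rs51756099)/Bakr, whose name states a D2 segment of chromosome 13 in B6. Its reciprocal is D2-13B6, D2.B6-(rs29224292-rs13469455)/Bakr in the sample labels, for which the series text gives rs51756099 as the second marker. For each mark, 3 separate B6 lines (4-1, 4-4 and 5-1) and 3 separate D2 lines (2-9, 5-5 and 203) gave 1 library each. A second series repeated 1 line per genotype (B6 5-1, D2 5-5, QJ 6-1 for B6-13D2 and XE 2-4 for D2-13B6) as technical replicates, with 3 H3K27ac libraries each and with 3, 2, 2 and 3 H3K9me3 libraries of B6, D2, B6-13D2 and D2-13B6. Tests within that series compare 4 lines, and a difference between lines of any origin enters them. Different H3K27ac antibodies were used (abcam for separate lines, Cell Signaling Technology for repeated libraries), so levels were compared only within a series. None of the 4 genes lies on chromosome 13.

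H3K27ac libraries were the deeper ones, with 15444270 to 18272793 counts each (separate lines) and 8735674 to 11543469 (repeated). H3K9me3 libraries had 1487862 to 2559262 and 1538145 to 2185977 counts. D2-13B6 replicate 1 stood apart from replicates 2 and 3 of its line in both marks. Measured as chi-square over degrees of freedom, it differed from replicates 2 and 3 by 2.46 and 2.47 (H3K9me3) and by 2.81 and 2.79 (H3K27ac). The other pair differed by 1.21 and 0.905. For the main comparisons with this line, values without that library are given beside those with it. In the repeated H3K27ac libraries, promoters of 8 of 8 stem cell genes (Pou5f1, Nanog, Sox2 and others) had regions, with a median of 27.8 CPM per kb. Lists for fibroblasts, endoderm, nerve, trophoblast and mesoderm had medians of 0.89 to 2.06 CPM per kb. In the separate lines the medians were 7.19 CPM per kb for the stem cell genes and 2.65 to 3.68 for the other lists. Genes without a region are left out of these medians. In the separate lines 1 of 5 fibroblast, 4 of 5 endoderm and 2 of 4 trophoblast genes had a region, and in the repeated libraries 4 of 5 fibroblast genes. The series also differ in region list and antibody, so the medians are not compared between them.

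Along the 4 genes, 11 regions were changing in H3K27ac, meaning an absolute log2 difference of at least 2 at an adjusted p under 0.05 in either congenic comparison. Of all regions tested, 1.82% met this rule, which is also the contrast that selected the genes. Filip1 held 8 of the 11, all between chr9:79896199-79904057 (GRCm38). Sh3rf3 held 2, between chr10:59032918-59035142. Elp4 held 1, at chr2:105858429-105859515, and Usp36 held 0. Cells were measured in bulk, so a mark on fewer cells and less of it per cell cannot be told apart. All 11 were intronic, and 0 of the promoter regions (within 1000 bp of an annotated transcript start) were changing.

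The leading regions of Filip1, Sh3rf3 and Elp4, those with the greatest H3K27ac difference in each gene, share sequence although the genes are unrelated. Each leading region overlaps a soft-masked block of the reference genome, of 10543 bp in Filip1, 7902 bp in Sh3rf3 and 6735 bp in Elp4, and 98.5%, 92.7% and 95.5% of its bases are soft-masked. The stretches below come from the reference genome GRCm38, run in the same orientation, and are shown because they are the feature that the 3 regions have in common. Capitals mark bases at which the 3 aligned stretches are not all the same. Of 285 alignment columns 248 were identical in all 3, and the Sh3rf3 and Elp4 stretches matched that of Filip1 at 96.4% and 93.0% of aligned bases.
Filip1 chr9:79901565-79901844 plus strand: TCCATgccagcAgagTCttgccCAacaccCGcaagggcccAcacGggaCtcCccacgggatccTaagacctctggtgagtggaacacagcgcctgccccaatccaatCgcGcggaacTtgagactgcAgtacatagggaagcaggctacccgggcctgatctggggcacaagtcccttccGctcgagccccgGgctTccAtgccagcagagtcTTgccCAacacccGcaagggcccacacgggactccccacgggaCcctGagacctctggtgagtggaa
Sh3rf3 chr10:59034332-59034615 minus strand: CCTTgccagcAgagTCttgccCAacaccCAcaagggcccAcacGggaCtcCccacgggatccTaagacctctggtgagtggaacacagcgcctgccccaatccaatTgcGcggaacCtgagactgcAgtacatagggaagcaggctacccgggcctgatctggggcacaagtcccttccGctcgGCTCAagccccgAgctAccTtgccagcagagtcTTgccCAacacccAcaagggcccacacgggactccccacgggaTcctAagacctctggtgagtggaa
Elp4 chr2:105858760-105859035 plus strand: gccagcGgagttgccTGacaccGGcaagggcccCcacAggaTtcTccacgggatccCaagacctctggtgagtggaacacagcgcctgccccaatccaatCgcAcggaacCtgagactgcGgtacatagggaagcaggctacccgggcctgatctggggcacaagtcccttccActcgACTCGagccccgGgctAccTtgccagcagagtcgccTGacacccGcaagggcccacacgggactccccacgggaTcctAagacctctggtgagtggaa
In each gene the stretch so written runs on the strand opposite to the gene's own, since Filip1 and Elp4 are transcribed from the minus strand and Sh3rf3 from the plus strand. Parts of the blocks are tandem. In the Sh3rf3 leading region bases 201 bp apart were identical at 86.4% of positions. The best such spacing was 199 bp in the Elp4 leading region, at 59.7%, and 397 bp in that of Filip1, at 55.2%. Over the 8 changing regions of Filip1 the best values ran from 32.7% to 95.7%, the highest at chr9:79902421-79902714 with a spacing of 200 bp. The central 300 bases of the leading regions were 64.7%, 62.7% and 63.0% G or C in Filip1, Sh3rf3 and Elp4 and held 16, 14 and 19 CpG dinucleotides. Across regions of the shared list the median of a central window of 300 bases was 49.3% G or C and 4 CpG dinucleotides. In the central 300 bases of each leading region, 5 motifs were searched as exact letters on both strands and none occurred. The octamer ATTTGCAT, bound by POU factors, occurred in 3.3% of such windows over all regions, and CATTGT, bound by SOX factors, in 17.6%. TCAAGGTCA, bound by ESRRB, occurred in 1.4%, the KLF letters CCACCC in 27.8% and the E-box CACGTG in 5.3%.

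Of the 11 changing regions, 9 held this repeat over at least 50% of their length. The 2 exceptions were Filip1 regions. At chr9:79899235-79899711 a shorter stretch, 167 bp, aligned to the Filip1 leading region at 98.2% identity, while chr9:79896199-79896648 did not align to any of the 3 leading regions. No other region of the 4 genes held the repeat over that share of its length. The repeat limits how reads of 75 bases can be placed. Only 36.9% of the 75-base words in the Filip1 leading region occurred once in the genome, 36.4% in that of Sh3rf3 and 37.3% in that of Elp4, against 100% in the promoter region of each of the 4 genes. Stretches of at least 75 bp with at least 98% identity to these leading regions were found at 50, 89 and 42 other loci. Their treatment in the alignment is not given in the sources used here, and its part in the values below was not tested.

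At the Filip1 leading region, chr9:79901262-79902147, H3K27ac was high in D2-13B6 alone among the 4 lines. In CPM, read counts scaled to a common library total, the 3 D2-13B6 libraries had 28, 28.2 and 26.8. The D2 libraries gave 0.214, 0.339 and 0.457 CPM, the B6 libraries 1.23, 1.38 and 1.11 CPM, and the B6-13D2 libraries 0.0955, 0.459 and 0.0903 CPM. The D2-13B6 libraries did not overlap those of any other line, and the B6 libraries lay above those of both D2 and B6-13D2. As log2 differences this was -6.34 for D2 minus D2-13B6 and -2.46 for B6-13D2 minus B6. The second value rests on 10 to 14 counts per B6 library and 1 to 5 per B6-13D2 library, and it became -3.55 without B6-13D2 replicate 2. The first value was -6.36 without D2-13B6 replicate 1 and ran from -6.59 to -6.07 over all libraries left out in turn.

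The other 7 changing regions of Filip1 lie within 6 kb of it and were also negative in both comparisons. Over all 8, log2 differences ran from -6.34 to -2.30 for D2 minus D2-13B6 and from -3.32 to -1.58 for B6-13D2 minus B6. The region chr9:79902421-79902714 gave -5.90 and -2.60, and chr9:79900730-79901123 gave -4.97 and -3.32. Without D2-13B6 replicate 1 the 8 values for D2 minus D2-13B6 ran from -6.36 to -2.30. The weakest, chr9:79896199-79896648, is the one with no alignment to the leading regions and lies just inside the rule, at -2.30 and -1.58 with 0 to 14 counts per library. Filip1 had 3 regions at annotated transcript starts, the highest of them at chr9:79830312-79831788, an internal start 181801 bp from the outermost one. The others lie 50789 and 35040 bp from the outermost start, at which the list holds no region, so that start was not measured. Its H3K27ac was 1.18 to 1.54 CPM in B6, 0.452 to 1.01 in B6-13D2, 1.14 to 2.03 in D2 and 1.51 to 2.43 in D2-13B6. D2 and D2-13B6 overlapped there, while B6-13D2 lay below B6 without overlap. The 3 start regions had log2 differences of -0.80 to 0.39 over both comparisons.

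Sh3rf3 showed the Filip1 pattern at its leading region, chr10:59034162-59035142. The D2-13B6 libraries gave 29.6, 26.7 and 31.9 CPM of H3K27ac. The D2 libraries gave 0.643, 0.339 and 0.8 CPM, the B6 libraries 1.74, 1.88 and 1.23 CPM, and the B6-13D2 libraries 0.191, 0.275 and 0.542 CPM. Again D2-13B6 stood alone and B6 lay above D2 and B6-13D2 without overlap. The log2 difference was -5.62 for D2 minus D2-13B6 (-5.64 without D2-13B6 replicate 1) and -2.22 for B6-13D2 minus B6. The neighbouring region chr10:59032918-59033388 gave -4.79 and -1.36, the former -4.84 without D2-13B6 replicate 1. At the promoter region of Sh3rf3, chr10:58811986-58814389, the order followed the strain background: 2.76 to 4.34 CPM in B6 and 3.43 to 4.20 CPM in B6-13D2, against 6.96 to 7.35 CPM in D2 and 6.07 to 7.43 CPM in D2-13B6. Its congenic log2 differences were 0.09 and 0.15.

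Elp4 differed from both in that its leading region was high in 2 lines, B6 and D2-13B6, and low in the other 2. At chr2:105858429-105859515 the B6 libraries gave 11.8, 11.6 and 12.6 CPM and the D2-13B6 libraries 11.2, 10.2 and 11.5 CPM. The B6-13D2 libraries gave 0.573, 1.01 and 0.722 CPM, and the D2 libraries 0.857, 0.113 and 0.686 CPM. The high and the low lines were thus those labelled with the B6 and with the D2 segment, respectively, on either background, and they did not overlap. The log2 differences were -3.94 for B6-13D2 minus B6 and -4.31 for D2 minus D2-13B6, and they were -3.92 and -4.31 without D2-13B6 replicate 1. Negative in both comparisons but short of the rule's limit of 2 was chr2:105845140-105846063, with -1.54 and -1.27. There the B6 libraries (8.19 to 10.9 CPM) were above B6-13D2 (2.89 to 3.44), and D2 (0.321 to 1.14) was mostly below D2-13B6 (1.01 to 2.22). The value of -1.27 became -0.83 without D2-13B6 replicate 1. Another intronic region, chr2:105869482-105870287, held 23 to 34 counts in each B6 and B6-13D2 library, 0 counts in each D2 library and 2, 1 and 0 counts in D2-13B6. The region at the start of Elp4, chr2:105903665-105905314, is shared with Immp1l, which is transcribed the other way, so the 2 genes cannot be told apart there. Its H3K27ac was 8.40 to 10.1 CPM over B6 and B6-13D2 and 10.2 to 12.7 CPM over D2 and D2-13B6, without overlap between the backgrounds, with congenic log2 differences of -0.04 and -0.01.

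Usp36 had no changing region, and its 12 regions had log2 differences of -1.40 to 0.09 for B6-13D2 minus B6 and -0.89 to 1.53 for D2 minus D2-13B6. Its promoter region, chr11:118288588-118291545, had H3K27ac of 20 to 21.4 CPM in B6, 18.9 to 22.5 in B6-13D2, 38.0 to 41.7 in D2 and 33.6 to 34.5 in D2-13B6. The 2 D2-background lines lay above the 2 B6-background lines without overlap. The log2 difference of D2 minus D2-13B6 was 0.21. Chromosome 11 as a whole was higher in D2-13B6, with a median of -0.29 for D2 minus D2-13B6 over its other regions, against 0.04, -0.00 and 0.05 for chromosomes 9, 10 and 2. Without D2-13B6 replicate 1 the chromosome 11 median was -0.26. Relative to its chromosome the Usp36 promoter was at 0.50. A flanking region, chr11:118297936-118298469, was picked with its values in view: its congenic log2 differences had opposite signs, -1.40 on the B6 and 1.53 on the D2 background, on 2 to 21 counts per library, the latter 1.95 without D2-13B6 replicate 1.

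**Figure D1:**
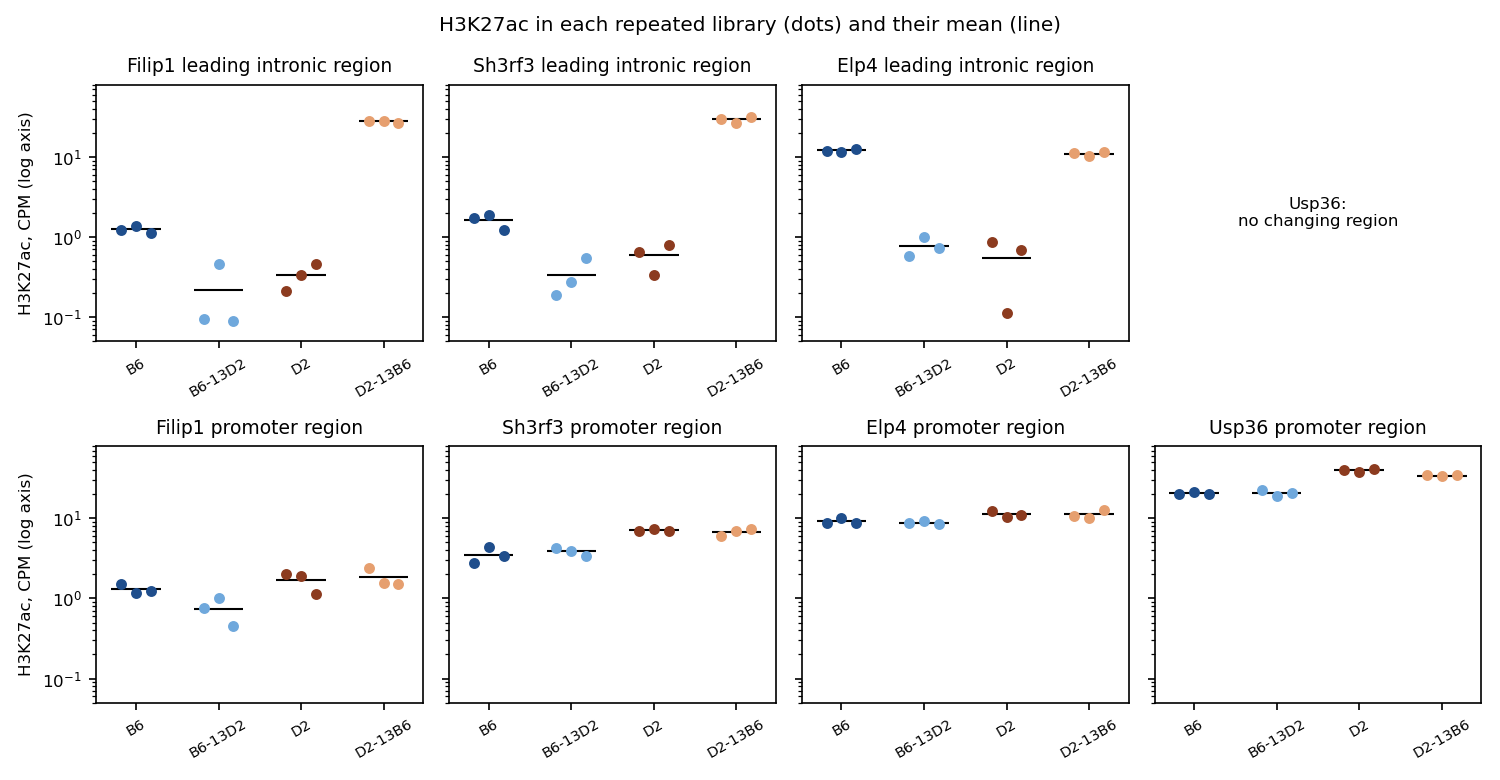
H3K27ac in CPM (log axis) at the leading intronic region of 3 genes (upper row) and at the promoter region of each gene (lower row), 1 dot per repeated library and a line at the mean of 3 libraries. The promoter region shown for Filip1 is at an internal start. D2-13B6 stands alone at Filip1 and Sh3rf3 (26.7 to 31.9 CPM), B6 and D2-13B6 are both high at Elp4 (10.2 to 12.6 CPM), and the promoters of Sh3rf3, Elp4 and Usp36 separate the backgrounds instead.

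**Figure D2:**
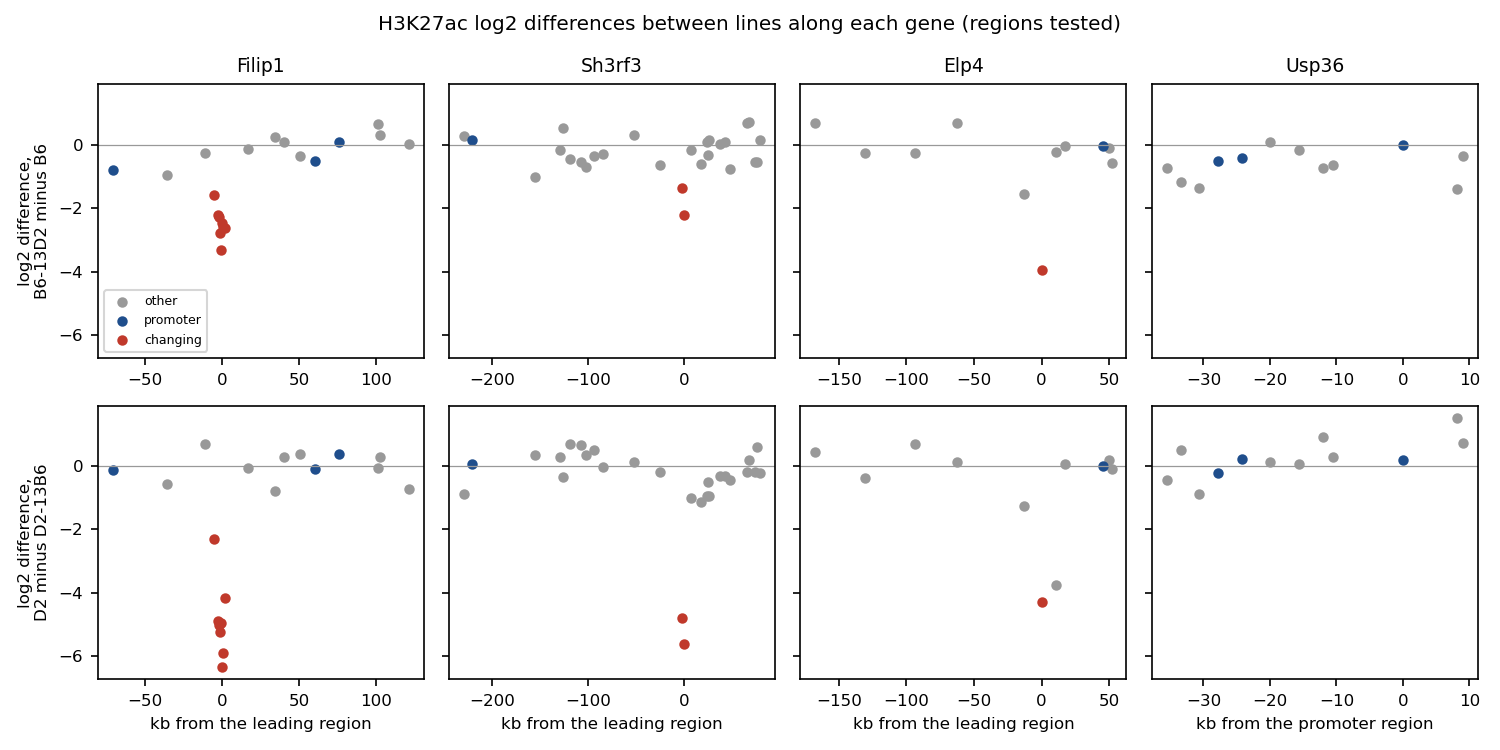
Log2 difference in H3K27ac of every tested region (dots) against its distance in kb from the leading region, or from the promoter region for Usp36, for B6-13D2 minus B6 (upper row) and D2 minus D2-13B6 (lower row). Changing regions (red) lie within a few kb of 1 point in Filip1, Sh3rf3 and Elp4, Usp36 has none, and promoter regions (blue) lie between -0.80 and 0.39. The grey Elp4 dot at -3.76 is the region with 0 counts in each D2 library, whose fitted value is no measured fold.

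H3K9me3, which was not used to choose the genes, was reduced in D2-13B6 relative to D2 at the same intronic regions. Of the 98 regions, 44 passed the count filter for this mark in the repeated libraries. Of the 11 changing regions 9 were called higher in D2 than in D2-13B6 at an adjusted p under 0.05 (edgeR quasi-likelihood test, Benjamini-Hochberg over all 86874 regions tested), and 0 were called lower. Over all regions tested, 2.2% were called in this comparison and 1.81% were called higher in D2. The 11 are not independent, since 8 lie close together in Filip1 and 2 in Sh3rf3, and 9 of the 11 hold the repeat. Their count beside that share is therefore a description. The median log2 difference of the 11 was 1.71, against -0.01 over all regions. Of the other 33 regions of the genes that were tested, 1 was called, lower in D2, and their median was -0.11. The greatest difference of all 44 nevertheless lay among these 33, at the intronic Filip1 region chr9:79895772-79896135, beside a changing region. There the D2 libraries had 7.16 and 5.43 CPM and the D2-13B6 libraries 0.899, 1.49 and 0.702 CPM, without overlap. The difference was 2.49 ± 0.80 and was not called (edgeR adjusted p = 0.0777), on 1 to 12 counts per library. The intronic Sh3rf3 region chr10:59041892-59042268 was at 1.28 ± 0.52 (edgeR adjusted p = 0.26), with 8.06 and 8.53 CPM in D2 and 7.20, 1.49 and 2.11 CPM in D2-13B6. Both were named after their values were seen. Without D2-13B6 replicate 1, 10 of the 11 changing regions were called higher, with a median of 1.88. In that fit 1 of 31 other regions was called higher, the same Sh3rf3 region at 2.12 (edgeR adjusted p = 0.0358), and 2 were called lower, both in Usp36. The 10 regions called in all became 13 without D2-13B6 replicate 1, 6 without D2 replicate 1, 5 without D2 replicate 2 and 6 with DESeq2.

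At the Filip1 leading region the D2 libraries had 30.4 and 27.9 CPM of H3K9me3 and the D2-13B6 libraries 13.5, 5.98 and 2.81 CPM. The B6 libraries had 28.3, 19 and 36.1 CPM and the B6-13D2 libraries 22.6 and 27.8 CPM. D2-13B6 was thus below the other 3 lines, and B6 overlapped both D2 and B6-13D2. The difference of D2 minus D2-13B6 was 2.04 ± 0.34 (log2 ± SE, edgeR adjusted p = 4.84e-06), and 2.69 without D2-13B6 replicate 1, the highest of its 3 libraries. The difference of B6-13D2 minus B6 was -0.15 ± 0.26 (edgeR adjusted p = 0.946). Of the 8 changing regions of Filip1, 6 were called in D2 minus D2-13B6, and the 8 values ran from 1.22 to 2.18. The 2 with the greatest difference were chr9:79899235-79899711, at 2.18 ± 0.50 (edgeR adjusted p = 0.0028), and chr9:79896199-79896648, at 2.07 ± 0.61 (edgeR adjusted p = 0.0412), the pair under the 50% limit for the repeat. Both rest on few counts, 1 to 29 per library. The call at chr9:79899235-79899711 was lost without D2 replicate 1 (2.03), D2-13B6 replicate 2 (1.71) or D2-13B6 replicate 3 (1.82), and the value became 3.34 without D2-13B6 replicate 1. That at chr9:79896199-79896648 was lost without D2-13B6 replicate 1 (1.79), D2-13B6 replicate 3 (1.87), D2 replicate 2 (1.56), B6 replicate 1 (2.05) or B6 replicate 3 (2.06). Among the other 4 called, 3 calls were lost without D2 replicate 2, which leaves 1 D2 library. At chr9:79900730-79901123 and chr9:79902421-79902714 the differences were nearly kept, at 1.53 (1.59 with all libraries) and 1.60 (1.63 with all libraries), and at chr9:79900186-79900379 the difference went from 1.85 to 1.13.

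At the Sh3rf3 leading region the D2 libraries had 26 and 17.8 CPM of H3K9me3 and the D2-13B6 libraries 6.3, 7.47 and 6.32 CPM. The B6 libraries had 29.1, 30.4 and 27.3 CPM and the B6-13D2 libraries 30.8 and 28.4 CPM. The D2-13B6 libraries again lay below all others. The difference of D2 minus D2-13B6 was 1.68 ± 0.35 (edgeR adjusted p = 0.000678), 1.62 without D2-13B6 replicate 1, and that of B6-13D2 minus B6 was 0.03 ± 0.24 (edgeR adjusted p = 0.99). Without D2 replicate 1, which leaves 1 D2 library assumed to vary like the other groups, the first call was lost (1.40, edgeR adjusted p = 0.205). The neighbouring region chr10:59032918-59033388 gave 1.35 ± 0.37 (edgeR adjusted p = 0.0257), a call lost without D2 replicate 1 (1.14), D2-13B6 replicate 2 (1.14) or D2-13B6 replicate 3 (1.24) and with DESeq2. The Sh3rf3 promoter region had 10.7 to 20.3 CPM over all 10 libraries, with the lines overlapping, and was not called in any of the 3 comparisons.

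Elp4 was the gene in which H3K9me3 was called in both congenic comparisons. At its leading region the B6-13D2 libraries had 28.7 and 29.1 CPM and the B6 libraries 15.3, 7.61 and 12.5 CPM. The D2 libraries had 13.4 and 15.5 CPM and the D2-13B6 libraries 3.6, 5.23 and 4.21 CPM. In each pair the line with the D2 segment was higher without overlap. The differences were 1.28 ± 0.28 for B6-13D2 minus B6 (edgeR adjusted p = 0.0014) and 1.71 ± 0.42 for D2 minus D2-13B6 (edgeR adjusted p = 0.00752), the latter 1.58 without D2-13B6 replicate 1. With DESeq2 both calls were lost, with adjusted p-values of 0.151 and 0.0764 at differences of 1.30 and 1.70. With edgeR the first was lost without B6 replicate 2 (1.05) or B6-13D2 replicate 2 (1.28), and the second without D2 replicate 1 (1.80) or D2 replicate 2 (1.63). In B6-13D2 minus B6, 1.69% of all regions were called, and this was 1 of the 44 regions of the genes and 1 of the 11 changing ones.

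Usp36 went the other way. Its 4 tested regions were all lower in D2 than in D2-13B6, at -0.79 (intronic), -1.43 (exonic), -1.81 (promoter) and -1.29 (flanking). Only the promoter was called with all libraries. At the promoter the D2-13B6 libraries had 26.1, 35.9 and 30.2 CPM of H3K9me3 and the D2 libraries 8.95 and 8.53 CPM. The B6 libraries had 4.36, 6.85 and 7.37 CPM and the B6-13D2 libraries 13.7 and 12.2 CPM. D2-13B6 was above all other lines, and B6-13D2 was above B6 and D2. The difference of D2 minus D2-13B6 was -1.81 ± 0.33 (edgeR adjusted p = 2.89e-05), and -1.93 without D2-13B6 replicate 1. Over the other regions of chromosome 11 the median was -0.49 in this comparison (-0.54 without D2-13B6 replicate 1), relative to which the Usp36 promoter was at -1.32. The difference of B6-13D2 minus B6 was 1.05 ± 0.38 and was not called (edgeR adjusted p = 0.209). H3K27ac at the same region was 33.6 to 34.5 CPM in D2-13B6, so both marks were above the B6 level there.

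Between the 2 parental lines in the repeated libraries, D2 and B6, 0 of the 11 changing regions were called for H3K9me3 with edgeR, with 1 of 11 at an unadjusted p under 0.05. Over all regions 11.3% were called, and over the genes 3 of 44. These 3 lie in Filip1. Named by the size of the difference they were chr9:79941553-79941962, higher in D2 by 1.27 ± 0.44 (edgeR adjusted p = 0.0413), and chr9:80003723-80004475, at -1.24 ± 0.34 (edgeR adjusted p = 0.00561), which overlaps Gm8131. The third, chr9:80004896-80005557, also overlaps Gm8131 and was at -1.19 ± 0.33 (edgeR adjusted p = 0.00666). With DESeq2 0 of the 44 were called. With edgeR the first was lost without D2 replicate 2 (0.66), B6 replicate 1 (0.91), B6 replicate 2 (1.09) or either B6-13D2 library (1.22), and the second without D2 replicate 2 (-0.99).

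**Figure D3:**
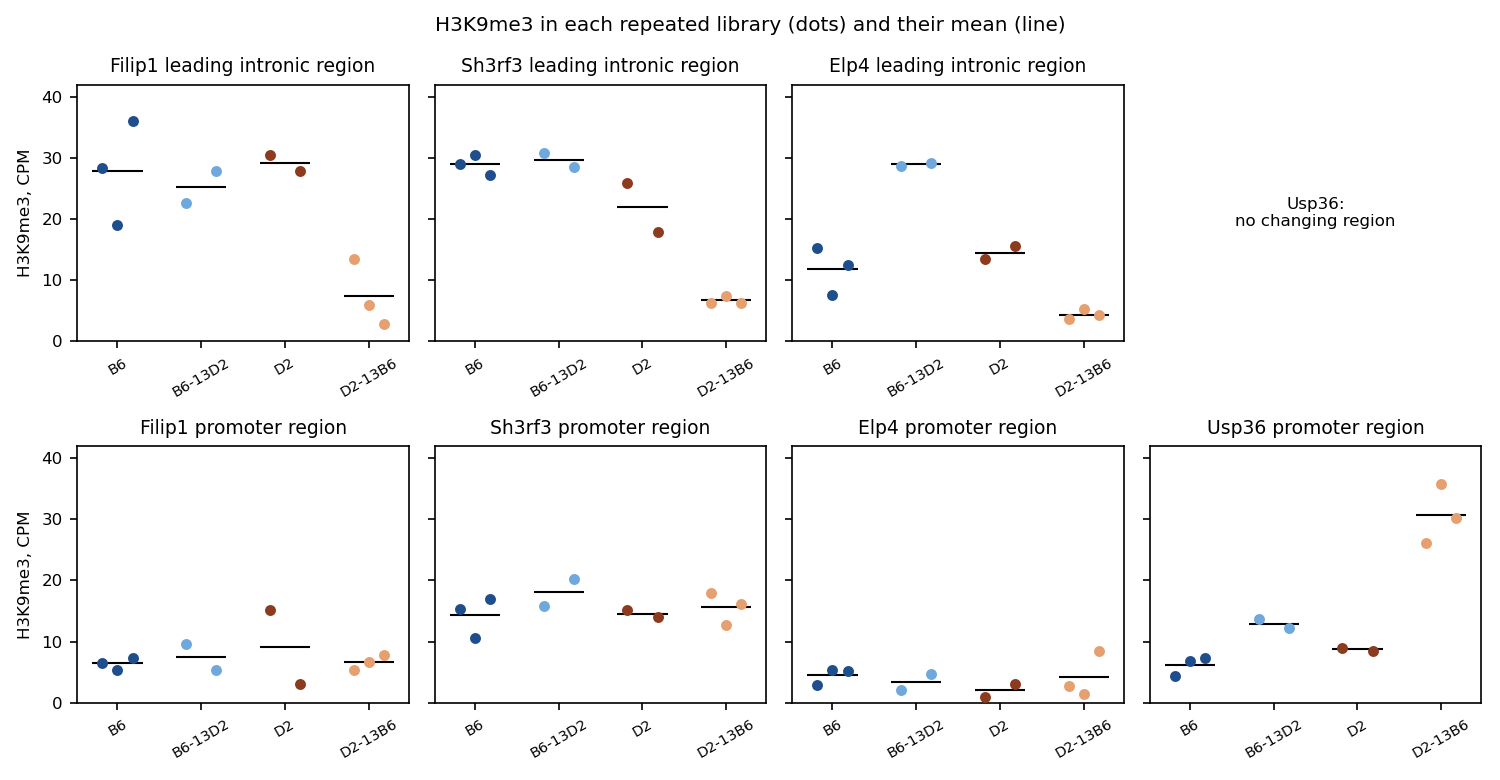
H3K9me3 in CPM (linear axis) at the same regions, 1 dot per repeated library and a line at the mean (3 libraries of B6 and D2-13B6, 2 of B6-13D2 and D2). D2-13B6 is lowest at the 3 leading regions (2.81 to 13.5 CPM), B6-13D2 is highest at that of Elp4 (28.7 and 29.1 CPM), and D2-13B6 is highest at the Usp36 promoter (26.1 to 35.9 CPM).

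The separate lines test whether B6 and D2 differ over 3 lines each. These libraries were not used to choose the genes, although B6 5-1 and D2 5-5 are the lines also used for the repeated libraries. In Elp4 the region that corresponds to the leading one, chr2:105858064-105859476, was lower in D2 for H3K27ac. The B6 lines had 5.25, 4.53 and 4.75 CPM and the D2 lines 0.514, 0.607 and 0.346 CPM, without overlap. The difference of D2 minus B6 was -3.29 ± 0.25 (edgeR adjusted p = 1.53e-16, n = 3 lines per strain), and -3.50 without the 2 reused lines. The second intronic region, chr2:105845104-105846189, had 5.31, 5.16 and 5.13 CPM in B6 and 1.09, 0.993 and 0.634 CPM in D2, a difference of -2.52 ± 0.21 (edgeR adjusted p = 9.7e-15). The Elp4 promoter region differed by -0.02 ± 0.11 (edgeR adjusted p = 0.899), with 11.3 to 12.3 CPM in B6 and 10.4 to 12.5 CPM in D2.

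Of the 17 regions, 9 were called in this comparison, 4 higher and 5 lower in D2, where 49.3% of all regions were called, so the share is near the background. Elp4 held 4 of the 5 lower ones. Promoter regions of the other genes were called higher in D2: Sh3rf3 by 0.62 ± 0.13 (edgeR adjusted p = 6.85e-05), Filip1 at its internal start by 0.73 ± 0.19 (edgeR adjusted p = 0.00103) and Usp36 by 0.21 ± 0.08 (edgeR adjusted p = 0.0383). The Filip1 call was lost without the 2 reused lines (0.49, edgeR adjusted p = 0.0991), and the Usp36 call was lost with DESeq2 and without B6 replicate 2 (0.18), B6 replicate 3 (0.20), D2 replicate 2 (0.21) or D2 replicate 3 (0.14). In Sh3rf3 the intronic region chr10:59099804-59101633 was higher in D2 by 0.50 ± 0.16 (edgeR adjusted p = 0.00687). A flanking region of Usp36, chr11:118255998-118257178, was lower in D2, at -0.76 ± 0.19 (edgeR adjusted p = 0.00076). The list of the separate lines holds no region at the changing regions of Filip1 or Sh3rf3, so these could not be tested there.

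For H3K9me3 in the separate lines, 26 of the 98 regions passed the filter and 6 were called, 2 higher and 4 lower in D2, where 34.7% of all regions were called. At the Elp4 leading region the B6 lines had 23.2, 19.6 and 14.4 CPM and the D2 lines 34.5, 41.8 and 37.6 CPM. The D2 lines were higher without overlap, by 1.00 ± 0.24 (edgeR adjusted p = 0.000766). Without the 2 reused lines the difference was 0.77 and was not called (edgeR adjusted p = 0.0553). The second Elp4 region, chr2:105845140-105846063, was higher in D2 by 0.68 ± 0.27 (edgeR adjusted p = 0.0484), a call lost with DESeq2, without a filter and without B6 replicate 1 (0.40), B6 replicate 2 (0.67), D2 replicate 2 (0.76) or D2 replicate 3 (0.64). The leading regions of Filip1 and Sh3rf3 had differences of 0.23 ± 0.25 and -0.04 ± 0.24 (edgeR adjusted p = 0.499 and 0.921), with the strains overlapping between 19.5 and 32.3 CPM. Other regions of these genes were lower in D2: chr10:58942393-58942750 in Sh3rf3 was at -2.66 ± 0.55 (edgeR adjusted p = 0.000169), and chr9:80003723-80004475 in Filip1 was at -1.44 ± 0.30 (edgeR adjusted p = 0.000174). The second overlaps Gm8131, as does chr9:80004896-80005557, at -1.12 ± 0.31 (edgeR adjusted p = 0.0034). Both regions at Gm8131 were also lower in D2 in the repeated libraries.

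**Figure D4:**
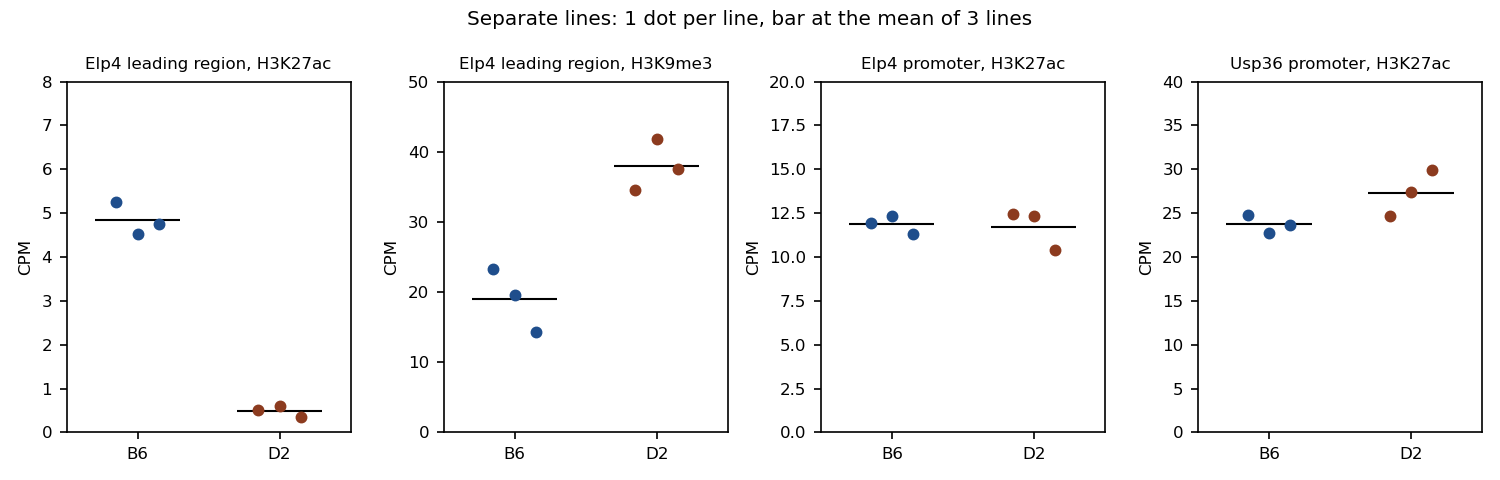
CPM in each separate line (dots, 3 B6 and 3 D2) with a bar at the mean. At the Elp4 leading region H3K27ac is 4.53 to 5.25 CPM in B6 and 0.346 to 0.607 CPM in D2 while H3K9me3 is 14.4 to 23.2 and 34.5 to 41.8 CPM, the Elp4 promoter overlaps between strains, and the Usp36 promoter has its lowest D2 line (24.7 CPM) just under the highest B6 line (24.8 CPM).

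The repeat in the leading regions is common in the genome, and most other regions that hold it were also lower for H3K27ac in D2 than in D2-13B6. Outside the 4 genes, 2037 regions of the shared list held the repeat over at least 50% of their length. They were chosen by sequence alone, after the members' values were seen, and they share sequence with each other, so their counts are a description. For H3K27ac, 89.0% of the 1912 tested were lower in D2 than in D2-13B6 at an adjusted p under 0.05, against 5.24% of all regions, and the median log2 difference was -2.39. In B6-13D2 minus B6, 51.4% were lower, against 5.40% of all regions, with a median of -1.66. For H3K9me3, 30.4% of the 1971 tested were higher in D2 than in D2-13B6 and 0 were lower, against 1.81% and 0.395% of all regions, with a median of 1.12. Without D2-13B6 replicate 1 the median for H3K27ac was -2.26 over 1995 repeat regions. That fit leaves 1 summed D2-13B6 sample, so no share called is given. For H3K9me3 without that library, 31.2% of 1969 were higher, with a median of 1.15. For H3K9me3 in B6-13D2 minus B6, 3.55% were higher and 0.101% lower, with a median of 0.08. Over all regions 1.23% were higher and 0.458% lower. Between D2 and B6 in the repeated libraries the repeat regions had medians of -0.13 for H3K27ac and -0.11 for H3K9me3. For H3K27ac 13.9% were higher and 19.9% lower in D2, against 14.7% and 13.4% of all regions. For H3K9me3 2.79% were higher and 8.17% lower, against 4.58% and 6.76% of all regions.

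The rank of the leading regions among the repeat regions in H3K27ac was set by their choice and is not given as a result. For H3K9me3, which the choice did not use, 93, 322 and 312 of the 1971 repeat regions had a higher value of D2 minus D2-13B6 than the leading regions of Filip1, Sh3rf3 and Elp4. Without D2-13B6 replicate 1 the numbers were 17, 440 and 468 of 1969. Regions with the most similar H3K27ac to each leading region over the 8 samples of the repeated libraries were found by Euclidean distance of log2 CPM. For Filip1 they lay 65.6 kb from Med10, 243 kb from Cpxcr1 and 47.2 kb from Cyp2b10, at distances of 1.85 to 1.98, and all 3 held the repeat. For Sh3rf3 the nearest was in Alpk1 at 1.46, followed by the region near Cyp2b10 and one 124 kb from Epha6, and all 3 held it. For Elp4, whose pattern differs, the nearest region lay 19.8 kb from Cyp2c29, at 1.64, and did not hold the repeat, while a region in Melk, at 2.50, did.

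**Figure D5:**
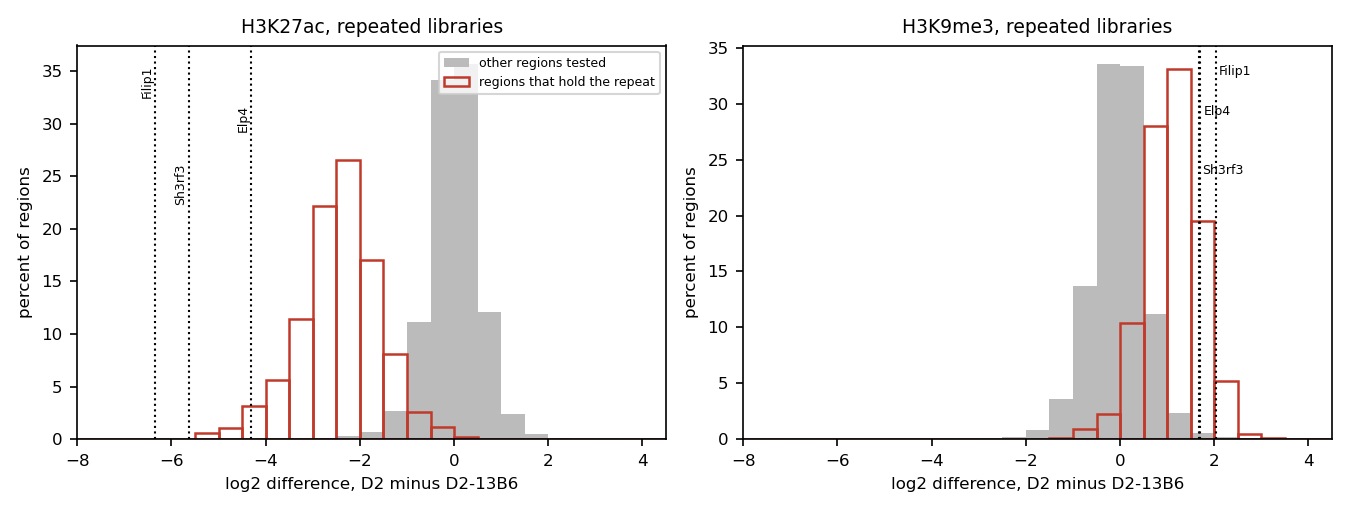
Percent of regions (bars of 0.5 in log2 difference, D2 minus D2-13B6) that hold the repeat outside the 4 genes (red outlines) and of the other tested regions (grey), for H3K27ac (left) and H3K9me3 (right); the last bar holds all values of 4 or more and dotted lines mark the leading regions. Repeat regions are shifted to a median of -2.39 in H3K27ac and 1.12 in H3K9me3, while the other regions are centred near 0.

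Genes related to the 4 by family or complex were read at their promoters for H3K27ac in the separate lines, where 49.3% of all regions were called. The Elongator genes Elp2, Elp5 and Elp6 were higher in D2, by 0.33, 0.30 and 0.25 on the log2 scale, and Elp3 was at 0.08 and was not called. Of the ubiquitin ligase genes Sh3rf1 was higher in D2, at 0.37, and Sh3rf2 was lower, at -0.34. Filip1l, Flna and Usp42 were at 0.21, 0.08 and 0.21 and were not called. Of 21 protein-coding genes with a start within 200 kb of the 4 genes, 19 had a promoter region for H3K27ac in the separate lines. Sept10 and Sowahc share 1 region, and that of Immp1l is the Elp4 start region, which leaves 17 separate regions, of which 7 were called higher and 1 lower. Dnah17, an axonemal dynein heavy chain gene beside Usp36, was the lower one, at -1.40 ± 0.17 (edgeR adjusted p = 3.2e-10). Pax6, beside Elp4, was at 0.24 ± 0.11 and was not called (edgeR adjusted p = 0.0639). In the repeated libraries, described with no test, H3K27ac at the Pax6 promoter was 6.67 to 9.00 CPM in B6-13D2 and 4.45 to 5.54 CPM in B6, without overlap. The log2 difference of B6-13D2 minus B6 was 0.89 there, opposite in sign to that of the Elp4 leading region. D2 (4.64 to 5.49 CPM) and D2-13B6 (4.46 to 6.27 CPM) overlapped at the Pax6 promoter, with a difference of -0.10. For H3K9me3 in the repeated libraries 12 separate regions of neighbours were tested, with median log2 differences of -0.19 for B6-13D2 minus B6, -0.10 for D2 minus D2-13B6 and 0.10 for D2 minus B6.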

How the data were processed

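H3K27ac and H3K9me3 were measured by ChIP-seq. The deposited tables hold whole read counts per region, made by the authors. Reads were processed with Trimmomatic 0.39, HISAT2 2.2.1, MACS 1.4.2, bedtools 2.9.2 and edgeR on build mm10, per the submitters' processing notes. Per the file headers, the counted alignments were named as free of duplicates. How peaks were merged into regions is not given in the sources used here. Of the tables' columns, 3 matched no sample and were not used.

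The genes and lists were chosen with earlier results of these data known. Each table was fitted whole with edgeR 4.0.16 (R 4.3.3): filterByExpr (minimum count 10), TMM scaling, a quasi-likelihood F-test and Benjamini-Hochberg adjustment, called at 0.05. Repeated H3K27ac libraries that differed by less than the sampling noise (chi-square per degree of freedom under 1) were counted as 1 sample, their counts summed, leaving 2 samples per line. Values per library are CPM over TMM-scaled totals of the regions that passed the filter. Those of the Pax6 promoter in the repeated libraries are over plain library totals, so their scale differs. Named regions are the changing regions, the promoter regions and those called with the greatest differences. The H3K9me3 replicates were technical, so p-values measure the spread between libraries.

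Repeats were searched with BLAST 2.17.0 and aligned with MAFFT 7.526 on GRCm38. Genes are from the GENCODE annotation of GRCm38. The model was tested on simulated data. Alternatives were DESeq2 1.42.0, library totals, no filter, a mean of at least 20 counts, a replicate block, libraries left out in turn, and omission of the reused lines. The difference between congenic comparisons, and shares and medians without D2-13B6 replicate 1, were added after the data were seen. Some items of the gene lists and of the similar regions are not reported here.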

Additional observations from a re-analysis of the deposited data

Results flagged for a closer look

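At 4 of the 44 regions of the genes that were tested, the H3K9me3 difference of B6-13D2 minus B6 differed from that of D2 minus D2-13B6. This was tested as an interaction in edgeR over all regions, where 0.389% of the 86874 regions tested were called, and the values are the first difference minus the second. Of the 11 changing regions 3 were called, with a median of -1.64, and of the other 33 regions 1 was called, with a median of 0.42. The changing regions lie close together within Filip1 and within Sh3rf3 and most share sequence, so they are not independent. At the Filip1 leading region, chr9:79901262-79902147, it was -2.19 ± 0.43 (edgeR adjusted p = 0.00143), and the call was lost with DESeq2 (adjusted p = 0.0704) and without D2-13B6 replicate 3 (-1.72, edgeR adjusted p = 0.052). At the Filip1 region chr9:79900186-79900379 it was -2.07 ± 0.53 (edgeR adjusted p = 0.0426), and at the Sh3rf3 leading region -1.64 ± 0.43 (edgeR adjusted p = 0.0487). Both of these calls were lost with library totals, without a filter and with most libraries left out in turn. At the Usp36 promoter it was 2.87 ± 0.51 (edgeR adjusted p = 0.000173), and this call held under every alternative run. No cause of these differences was tested.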

How the results depend on the processing

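Counts of called regions moved as follows. For H3K9me3 in the separate lines, 6 became 3 with a mean of at least 20 counts, a filter that leaves 7 regions. For B6-13D2 minus B6, 1 became 0 with DESeq2 and 0 with the stricter filter, and ran from 0 to 1 with libraries left out. For D2 minus D2-13B6, 10 became 6 with DESeq2 and 4 with the stricter filter, and ran from 5 to 13 with libraries left out. For D2 minus B6, 3 became 0 with DESeq2 and ran from 2 to 3. Changing regions for H3K27ac ran from 10 to 11, and calls in the separate lines from 8 to 10 for H3K27ac and 5 to 8 for H3K9me3. Leaving out a D2 or B6-13D2 library of repeated H3K9me3 leaves 1, assumed to vary like the other groups. In repeated H3K27ac each line has 2 samples, 1 of them summed. Leaving out the library that was not summed leaves 1 sample of its line there, such as D2-13B6 without replicate 1. Differences near 0 changed sign. Over libraries left out in turn, the Elp4 promoter in the separate lines ran from -0.0537 to 0.0696 and the Sh3rf3 leading region from -0.189 to 0.16. The latter was 0.121 with library totals, 0.018 without a filter, 0.0512 with the stricter filter and 0.159 without the reused lines. For B6-13D2 minus B6 the leading regions ran from -0.356 to 0.076 in Filip1 and from -0.0137 to 0.10 in Sh3rf3.

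With the replicate number as a block, D2 minus D2-13B6 had 11 calls, changing regions numbered 10, and the Sh3rf3 leading region was at -0.00666 in B6-13D2 minus B6. Same-numbered libraries correlated by -0.06 to 0.16 for repeated H3K9me3, so the numbers were not taken to pair samples. Counts per H3K9me3 library were low, and missed calls there do not show equal levels.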
